A study of Arabidopsis thaliana with 6 samples.

Results

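A set of 52 Arabidopsis thaliana genes was examined that were read in seeds of a flavonoid mutant and close to unread in wild-type seeds. A gene belonged to the set when its lowest value in the 3 tt7-7 samples was at least 4 RPKM and its highest value in the 3 Col-0 samples was below 1 RPKM, where RPKM is the number of reads scaled by transcript length and library size. The rule held for 52 of the 16967 genes of the deposited table, or 0.306%. Because the rule used the levels of both genotypes, the difference between them in these 52 genes is a description and was given no test.

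The tt7-7 samples were seeds of a mutant of TT7 (TRANSPARENT TESTA 7), and the Col-0 samples were wild-type seeds of the Columbia accession, the standard laboratory strain. Seeds of both genotypes were taken 8 days after pollination, and each genotype had 3 RNA-seq samples. The labels do not say whether the samples of a genotype came from separate plants, so the spread between them may be technical. They also do not describe the tt7-7 lesion or the background in which it was isolated.

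TT7 encodes flavonoid 3'-hydroxylase, a cytochrome P450 of flavonoid synthesis that hydroxylates the B ring, and tt7 seeds make pale seed coats because the pigment precursors of the later pathway are changed. A seed 8 days after pollination holds an embryo, an endosperm that feeds it and a maternal seed coat, and storage proteins and oils start to build up at about this stage. A gene near 0 in whole seeds is little transcribed, or its transcript is quickly removed, in most of these cells. Pseudogenes and many non-coding RNA genes are usually in that state, and so are the less used copies of duplicated genes.

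TT7 (AT5G07990) had 86.0, 97.4 and 102.5 RPKM in tt7-7 replicates 1 to 3, against 499.4, 272.0 and 239.9 RPKM in Col-0 replicates 1 to 3. The groups did not overlap, with a log2 fold change of -1.74 ± 0.256 (SE) and a limma adjusted p of 5.27e-04. Library totals recovered from the RPKM steps were 15577456 to 20300393 reads in tt7-7 and 13677094 to 20547689 reads in Col-0. Of 16663 genes tested with limma across the whole table, 8517 were higher in tt7-7 at an adjusted p of 0.05 (51.1%) and 1412 were lower (8.47%). Taken over all tested genes, the log2 fold change had a median of 0.44 on the deposited scale, -0.03 after median-ratio scaling and 0.03 after quantile normalization. A value between 0 and 0.44 was therefore below the median change.

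**Figure D1:**
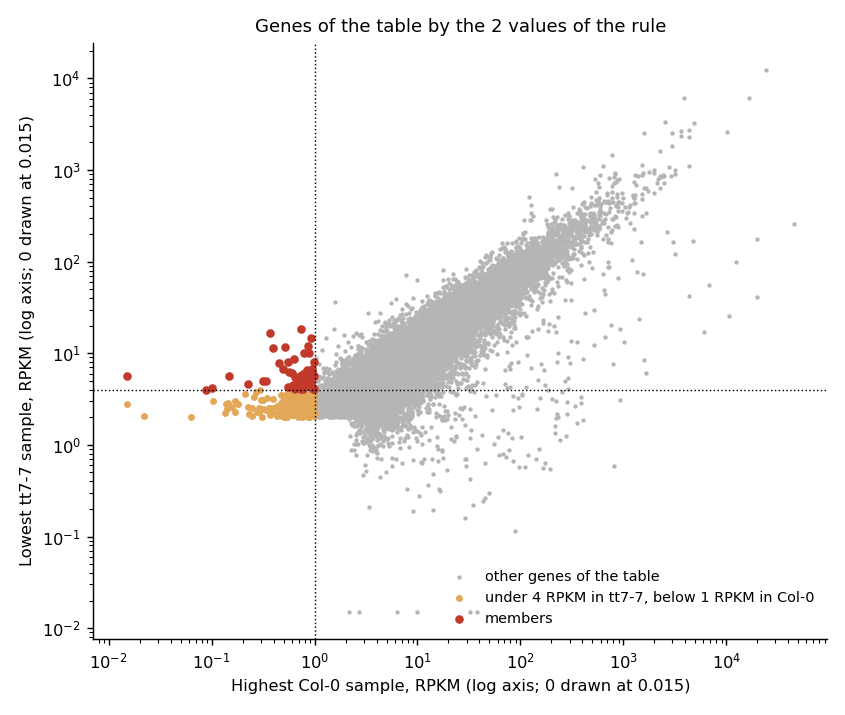
Each point is a gene of the table, with the lowest tt7-7 sample on the y axis and the highest Col-0 sample on the x axis, both in RPKM on log axes. Dotted lines mark the limits of 4 RPKM for tt7-7 and 1 RPKM for Col-0. The 52 members lie above and to the left of both lines, and the 193 genes under 4 RPKM in tt7-7 and below 1 RPKM in Col-0 form a band directly beneath them.

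The limits of the rule cut through a continuous distribution. In all, 245 genes had every Col-0 sample below 1 RPKM, and in the other 193 of these the lowest tt7-7 sample lay between 2 and 4 RPKM. None lay below 2 RPKM in tt7-7, since every one of the 16967 genes of the table had at least 2 RPKM in all 3 samples of at least 1 genotype, called the table's floor. Genes near silent in both genotypes were therefore not analysed here. Another 180 genes had at least 4 RPKM in every tt7-7 sample and a highest Col-0 sample of 1 to 2 RPKM.

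On the tt7-7 side of the rule the closest members were AT3G08065 and RR13, both with a lowest tt7-7 value of 4.02 RPKM, and AT1G22403 with 4.05 RPKM. The genes that missed this limit most narrowly were AT2G19250 at 3.99 RPKM, OASA2 at 3.97 RPKM and MYB4R1 at 3.94 RPKM. On the Col-0 side the closest members were AT2G13970 with a highest Col-0 value of 0.988 RPKM, PLDGAMMA2 with 0.985 RPKM and AT3G07280 with 0.980 RPKM. Just past it were the DNA methyltransferase gene DMT2 at 1.01 RPKM, MGP3 at 1.02 RPKM and AT1G36060, which encodes a DNA-binding protein, at 1.03 RPKM. Nothing in these values separates the members from the genes on the other side of the limits.

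Across the 52 members the group mean ranged from 4.30 to 21.9 RPKM in tt7-7, with a median of 6.56 RPKM, against 0 to 0.938 RPKM in Col-0, with a median of 0.552 RPKM. For comparison, the median gene of the table had 14.3 RPKM in tt7-7 and 9.81 RPKM in Col-0, so the members were low genes in the mutant too. The ratio of the group means had a median of 13.5, with the 1 member that had no Col-0 read placed at its lower bound or above. Together the members took 0.0873%, 0.140% and 0.0933% of the reads of tt7-7 replicates 1 to 3, against 0.00844%, 0.00650% and 0.00642% of the reads of Col-0 replicates 1 to 3.

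**Figure D2:**
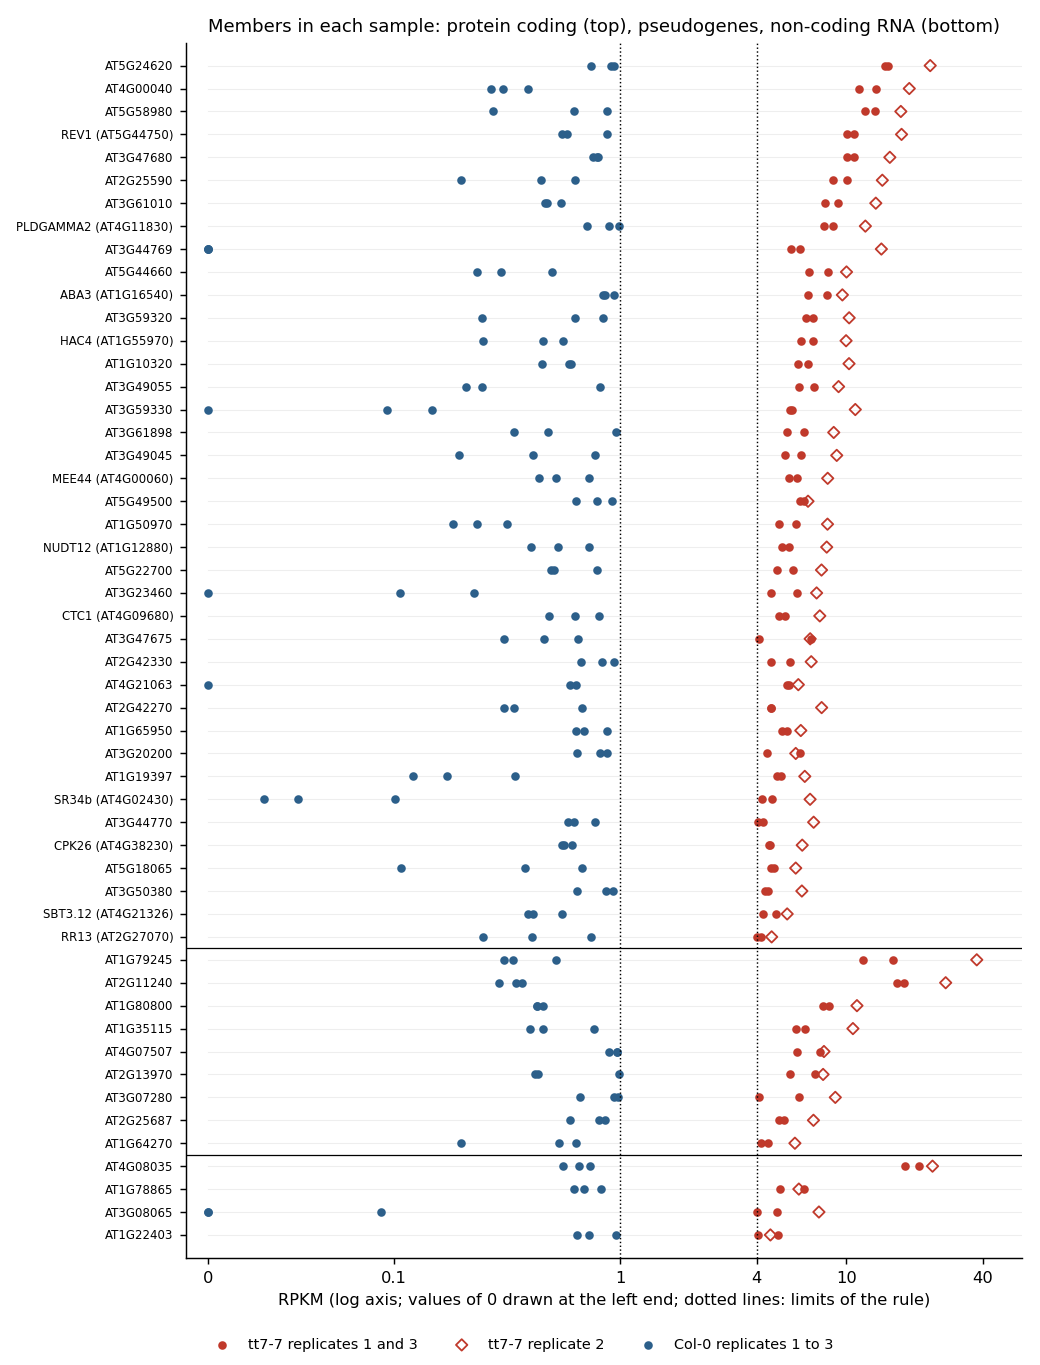
RPKM of the 52 members (rows) in each sample on a log axis, with tt7-7 replicates 1 and 3 as filled red points, tt7-7 replicate 2 as open red diamonds and Col-0 as blue points. Protein-coding genes are at the top, pseudogenes in the middle and non-coding RNA genes at the bottom. Replicate 2 is the highest tt7-7 sample in 48 of the 52 rows.

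The reads behind the values set how firmly a ratio can be given. Members had 26 to 7143 reads over the 3 tt7-7 libraries (median 740.5), against 0 to 421 reads over the 3 Col-0 libraries (median 63.0). In 8 members the Col-0 libraries held fewer than 10 reads in all, and 5 had a Col-0 library with no read. Intervals given below are exact 95% intervals on the pooled reads and cover counting error only.

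By annotation the set was unlike the table. It held 39 protein-coding genes, or 75% of the members, against 98.5% of the 16857 table genes that matched RefSeq. The 9 pseudogenes made up 17.3% of the members, against 0.593% of the table, and the 4 non-coding RNA genes made up 7.69%, against 0.943%. A symbol other than the locus tag was given to 21.2% of the members, against 45.0% of the table. Among the 193 genes under 4 RPKM in tt7-7 and below 1 RPKM in Col-0, 13 were pseudogenes (6.74%) and 18 non-coding RNA genes (9.33%). These shares describe sets picked by level and were not tested.

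The highest member in tt7-7 was the transcribed pseudogene AT1G79245. It had 11.8, 37.7 and 16.1 RPKM in tt7-7 replicates 1 to 3, against 0.522, 0.336 and 0.306 RPKM in Col-0 replicates 1 to 3. Replicate 2 stood far above the other tt7-7 samples, and the tt7-7 coefficient of variation of 63.4% was the widest of the set. Over 5809 reads in tt7-7 and 97 reads in Col-0 the pooled ratio was 57.2 (46.8 to 70.7).

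Another pseudogene, AT2G11240, had 16.6, 27.5 and 18.0 RPKM in tt7-7 replicates 1 to 3, against 0.345, 0.289 and 0.367 RPKM in Col-0 replicates 1 to 3. With 7143 reads in tt7-7 it was the most read member. Its pooled ratio of 62.1 (51.4 to 75.6) was close to that of AT1G79245. Both genes are much longer than the usual transcript of the table, at 6063 and 4572 bases in RefSeq against a median of 1720.

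The other 7 pseudogenes lay lower. AT1G80800 averaged 9.11 ± 1.76 RPKM in tt7-7 and 0.438 ± 0.0154 RPKM in Col-0 (SD, n = 3 each). AT1G35115 averaged 7.74 ± 2.56 RPKM in tt7-7 and 0.540 ± 0.198 RPKM in Col-0, but only 75.1% of its 50-base stretches occur once in the genome, so part of its reads could belong to copies elsewhere. Means of AT4G07507, AT2G13970, AT3G07280, AT2G25687 and AT1G64270 ranged from 4.86 to 7.21 RPKM in tt7-7, against 0.458 to 0.938 RPKM in Col-0.

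Among the non-coding RNA genes AT4G08035 was by far the highest. It had 18, 24 and 21 RPKM in tt7-7 replicates 1 to 3, against 0.659, 0.560 and 0.731 RPKM in Col-0 replicates 1 to 3. Its samples lay close together within each genotype, with a coefficient of variation of 13.7% in tt7-7. AT1G78865 averaged 5.92 ± 0.735 RPKM in tt7-7 and 0.710 ± 0.0995 RPKM in Col-0, and AT1G22403 averaged 4.54 ± 0.461 and 0.776 ± 0.166 RPKM in the same order. AT1G22403 had the smallest ratio of means in the set, at 5.86.

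The long non-coding RNA gene AT3G08065 was read once in Col-0. It had 4.02, 7.55 and 4.92 RPKM in tt7-7 replicates 1 to 3, against 0, 0 and 0.0875 RPKM in Col-0 replicates 1 to 3. The 186 reads in tt7-7 and the 1 read in Col-0 gave a pooled ratio of 177.7 with an interval of 31.5 to 7057.7. The size of this ratio is accordingly not known, beyond its lower bound.

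Only AT3G44769 had no read in any Col-0 library. This short gene of unknown function had 6.25, 14.3 and 5.67 RPKM in tt7-7 replicates 1 to 3, from 22, 65 and 26 reads. Taking 3 reads over the Col-0 group as the limit that a count of 0 allows, which is 0.248 RPKM, it was at least 36.0-fold higher in tt7-7. The shortest member, AT4G21063, is annotated by RefSeq with a coding sequence of 81 bases and no untranslated part. It had 7, 10 and 9 reads in tt7-7 and 1, 0 and 1 reads in Col-0, a pooled ratio of 12.4 (3.11 to 108.0). The coding sequences of both, from RefSeq assembly TAIR10.1, are shown because their length limits every value given for them, with the first and last codon in capitals. That of AT4G21063 does not end in a stop codon, which is how RefSeq gives it.
AT3G44769: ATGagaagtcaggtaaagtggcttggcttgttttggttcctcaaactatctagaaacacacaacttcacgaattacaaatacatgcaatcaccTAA
AT4G21063: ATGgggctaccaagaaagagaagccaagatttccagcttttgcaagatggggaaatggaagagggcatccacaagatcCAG

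Of the protein-coding members, 6 were assigned to metabolism. AT4G00040 belongs to the chalcone and stilbene synthase family, type III polyketide synthases whose best known member starts the flavonoid pathway. It had 13.5, 19.0 and 11.4 RPKM in tt7-7 replicates 1 to 3, against 0.392, 0.268 and 0.303 RPKM in Col-0 replicates 1 to 3. The pooled ratio was 44.8 (29.9 to 70.1), and the groups were more than an order of magnitude apart in every sample. What product AT4G00040 makes was not measured here.

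ABA3, the molybdenum cofactor sulfurase that activates the last enzyme of abscisic acid synthesis, averaged 8.19 ± 1.42 RPKM in tt7-7 and 0.875 ± 0.0537 RPKM in Col-0. The nudix hydrolase gene NUDT12 averaged 6.30 ± 1.63 RPKM in tt7-7 and 0.554 ± 0.164 RPKM in Col-0. A nucleotidyltransferase family gene, MEE44, averaged 6.62 ± 1.44 RPKM in tt7-7 and 0.560 ± 0.149 RPKM in Col-0. The methyltransferase family gene AT3G23460 was among the least read in Col-0, with 0, 3 and 2 reads in Col-0 replicates 1 to 3, against 92, 145 and 92 reads in tt7-7 replicates 1 to 3. AT3G61010, annotated as a ferritin or ribonucleotide reductase-like protein, averaged 10.2 ± 2.85 RPKM in tt7-7 and 0.496 ± 0.0452 RPKM in Col-0.

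The 5 members that act on DNA or chromatin included some of the higher ones, with tt7-7 means of 6.0 to 12.8 RPKM. REV1, a polymerase of the Y family that copies past damaged bases, had 10.7, 17.5 and 10 RPKM in tt7-7 replicates 1 to 3, against 0.874, 0.552 and 0.579 RPKM in Col-0 replicates 1 to 3. HAC4, a histone acetyltransferase of the CBP family, averaged 7.80 ± 1.92 RPKM in tt7-7 and 0.421 ± 0.159 RPKM in Col-0. CTC1, part of the complex that caps chromosome ends, averaged 6.0 ± 1.41 RPKM in tt7-7 and 0.637 ± 0.161 RPKM in Col-0. The Tudor-like gene AT2G25590 averaged 11.1 ± 2.97 RPKM in tt7-7 and 0.425 ± 0.217 RPKM in Col-0, and the DNA-binding protein gene AT3G47680 averaged 12.2 ± 2.96 and 0.780 ± 0.0222 RPKM in the same order.

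The RNA processing members numbered 4. SR34b, a splicing factor of the serine/arginine-rich family, had 4.70, 6.90 and 4.22 RPKM in tt7-7 replicates 1 to 3, against 0.10, 0.0377 and 0.0267 RPKM in Col-0 replicates 1 to 3. This was 142, 270 and 166 reads in tt7-7, against 4, 1 and 1 reads in Col-0, and the pooled ratio was 92.1 (42.0 to 251.9). AT2G42270, a helicase of the U5 small nuclear ribonucleoprotein that helps to set up the active spliceosome, averaged 5.68 ± 1.81 RPKM in tt7-7 and 0.440 ± 0.205 RPKM in Col-0. The zinc finger gene AT1G10320 and the tuftelin-interacting domain gene AT2G42330 averaged 7.71 and 5.74 RPKM in tt7-7, against 0.550 and 0.809 RPKM in Col-0.

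Membranes and transport accounted for 7 members. AT5G58980, a neutral ceramidase that splits the sphingolipid ceramide, was the highest of them and had 12, 17 and 13.3 RPKM in tt7-7 replicates 1 to 3, against 0.871, 0.274 and 0.624 RPKM in Col-0 replicates 1 to 3. PLDGAMMA2, a phospholipase D that releases phosphatidic acid, averaged 9.60 ± 2.22 RPKM in tt7-7 and 0.861 ± 0.141 RPKM in Col-0, with 88.8% of its 50-base stretches unique in the genome. AT5G49500, a subunit of the signal recognition particle that directs nascent proteins to the endoplasmic reticulum, had the narrowest spread of the set at 4.04% and averaged 6.5 ± 0.262 RPKM in tt7-7 and 0.779 ± 0.138 RPKM in Col-0. The vesicle tethering gene AT1G50970 and the vacuolar protein sorting gene AT3G50380 averaged 6.41 and 5.07 RPKM in tt7-7, against 0.243 and 0.811 RPKM in Col-0.

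The remaining 2 transport members, AT3G59320 and AT3G59330, are neighbouring copies of a solute carrier gene of family 35. AT3G59330 had 5.61, 10.9 and 5.71 RPKM in tt7-7 replicates 1 to 3, against 0.0925, 0 and 0.148 RPKM in Col-0 replicates 1 to 3. AT3G59320 had 7.09, 10.3 and 6.60 RPKM in tt7-7 replicates 1 to 3, against 0.244, 0.839 and 0.631 RPKM in Col-0 replicates 1 to 3. They were at like levels in tt7-7, while in Col-0 AT3G59330 had 5 reads in all and AT3G59320 had 40. They lie on the same strand with 65 bases between them, and their coding sequences are identical at 87.3% of 685 aligned bases. The most alike stretch of 60 bases differs at 1 position, shown in capitals (sequences from RefSeq TAIR10.1), and the longest identical run is 56 bases, so short reads from this stretch could be shared by the pair.
AT3G59320: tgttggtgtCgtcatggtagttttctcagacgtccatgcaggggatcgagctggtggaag
AT3G59330: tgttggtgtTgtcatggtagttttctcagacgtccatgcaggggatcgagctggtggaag

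The signalling members, 4 in number, were uniform and low, with tt7-7 means of 4.30 to 5.64 RPKM and ratios of means of 7.13 to 9.23. RR13, a response regulator of cytokinin signalling, averaged 4.30 ± 0.333 RPKM in tt7-7 and 0.465 ± 0.251 RPKM in Col-0. CPK26, a calcium-dependent protein kinase, averaged 5.17 ± 1.04 RPKM in tt7-7 and 0.575 ± 0.0322 RPKM in Col-0. The kinase family genes AT1G65950 and AT3G20200 averaged 5.64 and 5.54 RPKM in tt7-7, against 0.736 and 0.776 RPKM in Col-0.

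Protein turnover and secreted proteins were represented by 4 members. AT5G24620, a thaumatin-like protein of the pathogenesis-related class, was the highest protein-coding member, with 14.9, 23.5 and 15.3 RPKM in tt7-7 replicates 1 to 3, against 0.934, 0.743 and 0.905 RPKM in Col-0 replicates 1 to 3. The F-box genes AT3G49045 and AT5G22700, of a family that selects proteins for degradation, averaged 6.89 and 6.17 RPKM in tt7-7, against 0.459 and 0.599 RPKM in Col-0. The subtilisin-like protease gene SBT3.12 averaged 4.87 ± 0.586 RPKM in tt7-7 and 0.452 ± 0.0878 RPKM in Col-0. The last 9 protein-coding members, AT1G19397, AT3G44769, AT3G44770, AT3G47675, AT3G49055, AT3G61898, AT4G21063, AT5G18065 and AT5G44660, have no assigned role, with tt7-7 means of 5.14 to 8.73 RPKM and Col-0 means of 0 to 0.659 RPKM. RefSeq describes AT5G18065 as a target of a trans-acting small RNA, and it had 102, 164 and 129 reads in tt7-7 replicates 1 to 3, against 19, 2 and 10 reads in Col-0 replicates 1 to 3. AT3G47675 has unique sequence over only 76.3% of its 50-base stretches, is 96.6% identical in protein to AT2G39690 and overlaps AT3G47680 on the same strand, so its value is uncertain.

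The members moved together within tt7-7 as well. Their median was 6.02, 8.21 and 5.89 RPKM in tt7-7 replicates 1 to 3, against 0.650, 0.441 and 0.514 RPKM in Col-0 replicates 1 to 3. Replicate 2 was the highest tt7-7 sample in 48 members (92.3%), and the exceptions were AT1G22403, AT1G78865, AT3G20200 and AT3G47675. Over all genes of the table replicate 2 was the highest tt7-7 sample in 35.9%, and over the 193 genes under 4 RPKM in tt7-7 and below 1 RPKM in Col-0 in 63.7%. The ratio of replicate 2 to the mean of replicates 1 and 3 had a median of 1.44 over the members, with a range of 1.02 to 2.70, and of 1.02 over all genes. Within Col-0, replicate 1 was the highest sample in 61.5% of the members and in 62.2% of all genes.

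**Figure D3:**
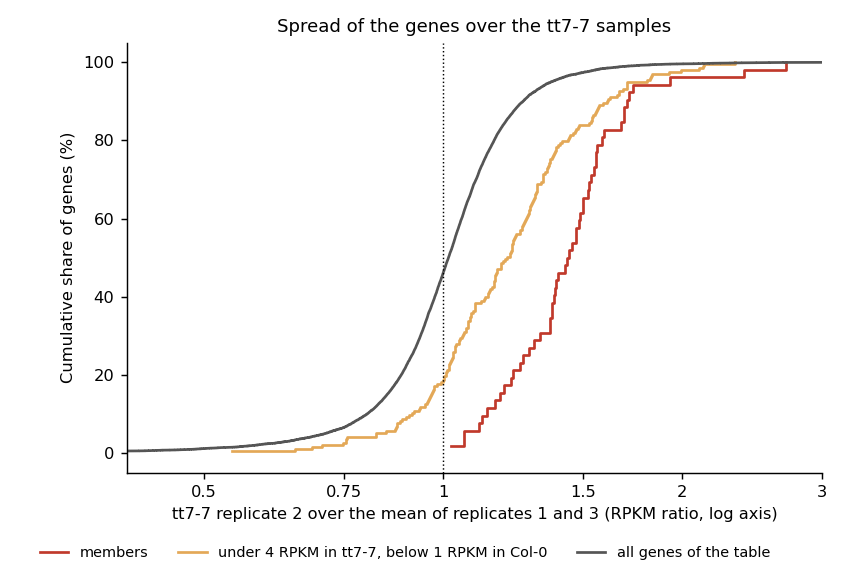
Cumulative share of genes (y axis, %) by the ratio of tt7-7 replicate 2 to the mean of tt7-7 replicates 1 and 3 (x axis, log scale), for the 52 members, the 193 genes under 4 RPKM in tt7-7 and below 1 RPKM in Col-0, and all genes of the table. Every member lies to the right of 1, and the median is 1.44 for the members and 1.02 for all genes.

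Without replicate 2 of tt7-7 the rule found 55 genes, a count that leaving a sample out of the rule can only raise, and the median ratio of the group means was 11.7. Under median-ratio scaling replicate 2 was the highest tt7-7 sample in 49 members, against 34.5% of all genes, and under quantile normalization in 48 members, against 31.8%. The tt7-7 coefficient of variation had a median of 23.2% over the members, 17.1% over the 193 genes under 4 RPKM and 11.2% over all genes. The library of replicate 2 also held the lowest summed level of 8 seed maturation markers. These were storage protein and oil body genes, the 3-ketoacyl-CoA synthase gene FAE1, the stress-induced protein gene EM6 and the regulator ABI3. The sums were 1626.1, 449.1 and 2372.1 RPKM in tt7-7 replicates 1 to 3, against 6743.1, 13931.5 and 49135.8 RPKM in Col-0 replicates 1 to 3. Of these 8 markers 6 were lower in tt7-7 and 1, the regulator ABI3, was higher at a limma adjusted p of 0.05. After either scaling 6 were lower and 0 higher. The part of these markers in the levels of the members was not tested. In whole seeds, fewer cells of a type and less RNA per cell cannot be told apart.

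Markers of the seed's other tissues were read in both genotypes. Counts of higher and lower markers are by the limma adjusted p and are read beside the 51.1% and 8.47% of all tested genes. Of 8 seed coat markers 4 were higher and none lower, with sums of 1363.9 to 1737.3 RPKM in tt7-7 and 759.7 to 1176.4 RPKM in Col-0. After median-ratio scaling 4 were higher and 2 lower. On the deposited scale the higher ones were BAN, TT16, STK and TTG2. BAN differed most in mean level, at 369.5 RPKM in tt7-7 and 78.1 RPKM in Col-0. TT16 was in the table only through tt7-7, so the floor favoured its direction. TT10, GL2, MUM4 and PRX36 were not called, with log2 fold changes of 0.26, 0.85, -0.01 and -0.01. Of the 6 early endosperm markers with values 3 were higher and none lower, with sums of 105.5 to 116.0 RPKM in tt7-7 and 66.2 to 106.1 RPKM in Col-0. That count was 2 higher and 1 lower after median-ratio scaling, 1 higher after quantile normalization and 5 higher without Col-0 replicate 1. The higher ones on the deposited scale were FIS2, FWA and EDE1. FIS2 and FWA were in the table only through tt7-7, so the floor favoured their direction. Of 5 embryo markers 2 were higher and 1 lower, with sums of 207.3 to 248.1 RPKM in tt7-7 and 242.6 to 315.3 RPKM in Col-0, and the balance turned to 1 higher and 3 lower after median-ratio scaling and to 1 higher and 2 lower after quantile normalization.

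Carpel and silique wall markers summed to 106.4 to 110.9 RPKM in tt7-7 and 50.3 to 57.9 RPKM in Col-0, with 3 of 4 higher, or 2 after either scaling. SHP1 and SHP2 averaged 33.0 and 49.1 RPKM in tt7-7, against 11.4 and 22.5 RPKM in Col-0, and IND was the other higher one. FUL was not called, at 19.9 ± 4.80 RPKM in tt7-7 and 18.1 ± 1.53 RPKM in Col-0. Whether these genes were read in the seed itself was not tested. Only 2 of 9 pollen markers were listed, with sums of 27.4 to 43.4 RPKM in tt7-7 and 28.1 to 31.8 RPKM in Col-0. One of them was higher, VGD1, a pectin methylesterase gene of the pollen tube, at 14.7 ± 3.91 RPKM in tt7-7 and 7.90 ± 0.166 RPKM in Col-0 (SD, n = 3 each), with a log2 fold change of 0.79 and a limma adjusted p of 0.00440, and it was no longer called after either scaling. None of 5 root and none of 3 egg cell and synergid markers was listed. The part of these tissues in the members' levels was not tested.

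The lists of genes drawn up for comparison held no member. Of 8 type I MADS-box genes in the table, regulators of endosperm development, only AGL91 was higher in tt7-7, at 8.18 ± 1.92 RPKM in tt7-7 and 4.51 ± 1.74 RPKM in Col-0 (SD, n = 3 each) with overlapping samples. None of the 8 was lower by the limma adjusted p or at an unadjusted p of 0.05, and the median log2 fold change was 0.59. AGL80, AGL86 and AGL35 were in the table only through tt7-7. The floor therefore favoured their direction and bears on the median and on the lack of lower genes. The count of higher genes rested on single libraries and was 7 when Col-0 replicate 1 was left out, 2 when tt7-7 replicate 3 was, and 0 when any other sample was. Of the 4 heat shock genes with values, 2 were higher, namely HSP101, at 62.3 ± 31.5 RPKM in tt7-7 and 17.8 ± 12.4 RPKM in Col-0, and HSFA2, at 40.2 ± 21.7 RPKM in tt7-7 and 7.94 ± 6.63 RPKM in Col-0. The samples of HSP101 overlapped, with 27.3 RPKM in tt7-7 replicate 1 and 30.5 RPKM in Col-0 replicate 3. HSFA2 had a Col-0 sample under 2 RPKM and was in the table only through tt7-7. The heat shock count was 1 without tt7-7 replicate 3 and 0 under median-ratio scaling or quantile normalization. Of 5 defence genes only PR5 was in the table and was lower, at 5.87 ± 5.41 RPKM in tt7-7 and 13.9 ± 5.0 RPKM in Col-0, which is no longer called without tt7-7 replicate 1, tt7-7 replicate 2 or Col-0 replicate 3. The samples of PR5 overlapped too, with 12.1 RPKM in tt7-7 replicate 3 and 9.73 RPKM in Col-0 replicate 1. The background for these counts is again 51.1% higher and 8.47% lower.

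Some of the members have a better read relative in the table. A protein search (blastp, at least 50% of the member's length aligned) found a closest relative for 28 of the 39 protein-coding members, and 17 of these relatives were in the table. The relatives of the other 11 were not listed, so the counts below leave out relatives under the table's floor. In tt7-7 the relative was above the member in 10 of the 17 pairs, with a median ratio of 1.51. In Col-0 it was above the member in all 17, by a median of 8.52-fold. For 13 relatives, with at least 2 RPKM in every Col-0 sample, the rule and the table's floor fixed this order. For the others the upper limit on the members in Col-0 favoured it. The relatives played no part in the rule and could be tested.

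**Figure D4:**
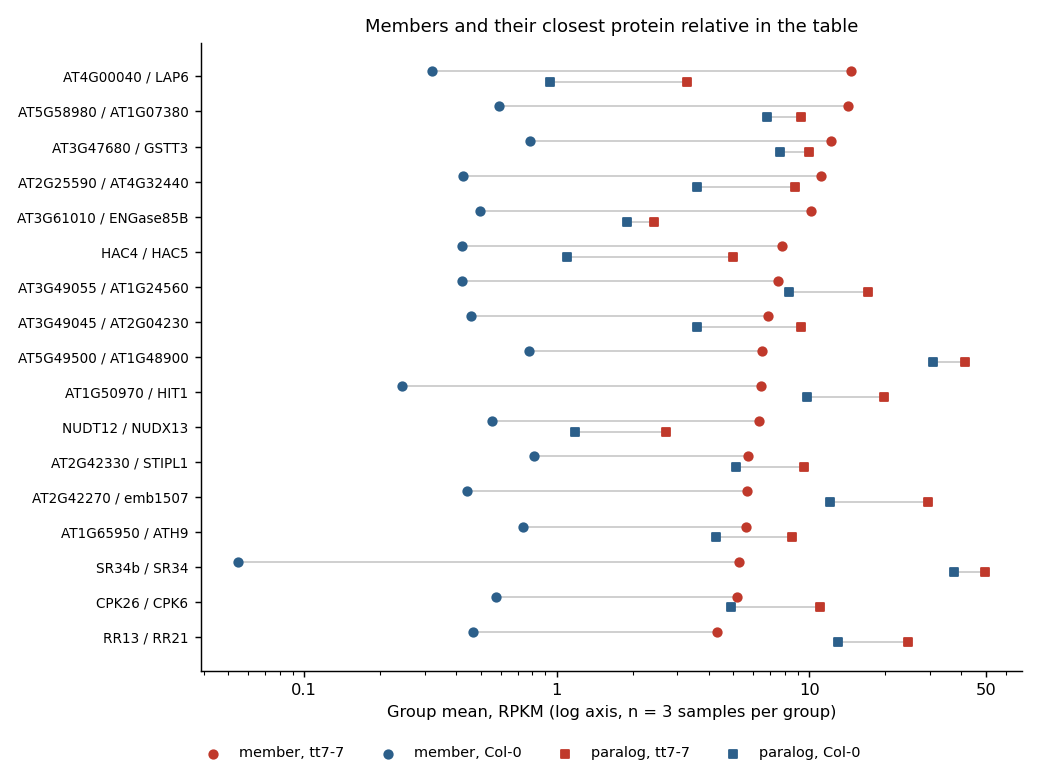
Group means in RPKM (log axis, 3 samples per group) of 17 members (circles) and their closest protein relative in the table (squares), in tt7-7 (red) and Col-0 (blue). The relatives lie above the members in 10 pairs in tt7-7 and in all 17 pairs in Col-0. The rule and the table's floor fixed the Col-0 order for 13 of the pairs.

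Of the 16 relatives that passed the filter of a mean of at least 2 RPKM, 14 were higher in tt7-7 at a limma adjusted p of 0.05 (87.5%) and none was lower, beside 51.1% and 8.47% of all tested genes. The table's floor bears on this count, since HAC5, LAP6 and ENGase85B had a Col-0 sample under 2 RPKM and were listed only through tt7-7. Of the 13 relatives listed through both genotypes, 12 were higher (92.3%) and none lower, beside 48.7% and 8.35% of the 14604 tested genes listed through both. Their log2 fold changes ranged from 0.35 to 1.22 with a median of 0.90, beside 0.40 over those genes. After median-ratio scaling 9 of the 16 were higher and none lower, where 26.0% of all genes were higher, and after quantile normalization 9 were higher and 1 lower, where 26.8% of all genes were higher. The relatives were found after the data had been seen, and no test set this share against that of other genes.

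The relative of SR34b is SR34, a splicing factor of the same family, with 84.3% identity between the proteins. SR34 had 50, 54.2 and 44.7 RPKM in tt7-7 replicates 1 to 3, against 38.3, 42.1 and 32.1 RPKM in Col-0 replicates 1 to 3. Its log2 fold change was 0.40 ± 0.147 (SE) with a limma adjusted p of 0.0403, and -0.11 after median-ratio scaling. The call was lost without Col-0 replicate 1 or 3 and without tt7-7 replicate 1 or 2. The coding sequences are identical at 83.4% of 860 aligned bases, and the most alike stretch of 60 bases differs at 4 positions, in capitals (RefSeq TAIR10.1). None of the 50-base stretches of the SR34b transcript occurs elsewhere in the genome.
SR34b: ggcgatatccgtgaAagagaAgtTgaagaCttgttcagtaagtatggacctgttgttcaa
SR34: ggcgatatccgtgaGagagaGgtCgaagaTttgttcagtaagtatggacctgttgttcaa

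The relative of the helicase gene AT2G42270 is emb1507, a helicase of the same particle with 82.3% protein identity. It had 27.2, 36.4 and 25.2 RPKM in tt7-7 replicates 1 to 3, against 14.4, 12.1 and 9.84 RPKM in Col-0 replicates 1 to 3. The groups did not overlap, and the log2 fold change was 1.22 ± 0.183 (SE) with a limma adjusted p of 5.63e-04. The coding sequences of AT2G42270 and emb1507 are identical at 84.3% of 6503 aligned bases, with a longest identical run of 62 bases. Short reads from this stretch could be shared by the pair, though 99.6% of the 50-base stretches of AT2G42270 are unique in the genome. HAC5, the relative of HAC4, averaged 4.97 ± 0.756 RPKM in tt7-7 and 1.1 ± 0.0196 RPKM in Col-0, a direction that the table's floor largely fixed.

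LAP6, the relative of AT4G00040, encodes a polyketide synthase of pollen wall formation and averaged 3.27 ± 0.342 RPKM in tt7-7 and 0.938 ± 0.120 RPKM in Col-0, which the floor likewise favoured. The kinase gene CPK6 (relative of CPK26), the response regulator RR21 (of RR13), the tethering gene HIT1 (of AT1G50970) and STIPL1 (of AT2G42330) had log2 fold changes of 1.01, 0.90, 0.96 and 0.82. By contrast, the ceramidase gene AT1G07380 and the signal recognition particle gene AT1G48900, relatives of AT5G58980 and AT5G49500, had log2 fold changes of 0.39 and 0.42, which were -0.07 and -0.08 after median-ratio scaling. GSTT3, closest in protein to AT3G47680, was not called, with a log2 fold change of 0.35 and a limma adjusted p of 0.0508.

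In position the members were spread over the 5 chromosomes, with 13 on chromosome 1, 7 on chromosome 2, 15 on chromosome 3, 10 on chromosome 4 and 7 on chromosome 5. Chromosome 3 held 28.8% of the members, against 20% of the table's genes, and chromosome 5 held 13.5%, against 23.4%. Members next to each other in the RefSeq order formed 3 pairs, all on chromosome 3. These were AT3G59320 with AT3G59330, AT3G44769 with AT3G44770, which lie 9 bases apart on the same strand, and AT3G47675 with AT3G47680, which overlap on the same strand. How reads that run across such a boundary were counted is not stated, so these pairs may not be independent members.

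The genes on both sides of each member were looked up. Of 46 neighbours that were not members and were tested, 22 were higher in tt7-7 (47.8%), 3 were lower (6.52%), and the median log2 fold change was 0.42, close to the 51.1%, 8.47% and 0.44 of all tested genes. The floor listed 12 of the 46 only through tt7-7 and 2 only through Col-0. Of the other 32, 13 were higher (40.6%) and 1 was lower (3.12%), with a median log2 fold change of 0.37, beside 48.7%, 8.35% and 0.40 of the tested genes listed through both genotypes. AT4G07455, beside the pseudogene AT4G07507, averaged 9.54 ± 1.49 RPKM in tt7-7 and 0.943 ± 0.836 RPKM in Col-0. SADHU2-1, named for the Sadhu retroposons and next to the pseudogene AT1G35115, averaged 3.69 ± 1.42 RPKM in tt7-7 and 0.418 ± 0.178 RPKM in Col-0. Both were listed only through tt7-7, so the floor largely fixed their direction. The lower neighbours were AT1G78860, AT3G07270 and SAUR23, with log2 fold changes of -0.84, -0.37 and -0.71, of which AT1G78860 and SAUR23 were listed only through Col-0.

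A run of 5 genes on chromosome 3 held 2 members. In RefSeq order they were the F-box gene AT3G49040, the member AT3G49045, the hydrolase gene AT3G49050, the member AT3G49055 and the kinase gene AT3G49060. AT3G49050 had 25.3, 32.8 and 22.4 RPKM in tt7-7 replicates 1 to 3, against 7.06, 8.20 and 4.90 RPKM in Col-0 replicates 1 to 3, with a log2 fold change of 1.86 ± 0.201 (SE) and a limma adjusted p of 1.48e-04. AT3G49060 averaged 8.22 ± 0.564 RPKM in tt7-7 and 3.38 ± 0.383 RPKM in Col-0, with a log2 fold change of 1.08 and a limma adjusted p of 2.75e-04. AT3G49040 missed the tt7-7 limit of the rule and the filter of the fit, at 3.50 ± 0.802 RPKM in tt7-7 and 0.260 ± 0.170 RPKM in Col-0. The groups did not overlap in any of the 5 genes, which the rule fixed for the 2 members and the floor largely fixed for AT3G49040. AT3G49050 and AT3G49060 are read beside the 51.1% of tested genes called higher in tt7-7. The share of the table's genes without overlap is not given here, so the run cannot be called unusual. AT3G49055 and AT3G49060 overlap on the same strand, and the run was picked out after its values had been seen.

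**Figure D5:**
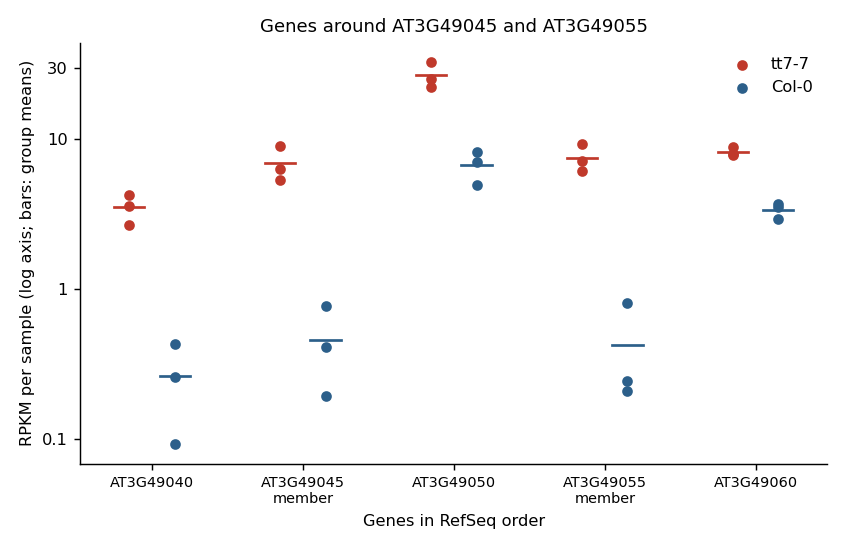
RPKM per sample (log axis) of 5 consecutive genes in RefSeq order, with tt7-7 in red on the left of each gene and Col-0 in blue on the right, and bars at the group means. In every gene the 3 tt7-7 samples lie above the 3 Col-0 samples, which the rule fixed for AT3G49045 and AT3G49055 and the floor largely fixed for AT3G49040. The group means in Col-0 are 0.459 RPKM for AT3G49045 and 6.72 RPKM for AT3G49050 next to it.

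Transcript length and GC content of the members lay close to those of the table. Transcript length had a median of 1870.5 bases, against 1720 in the table, and GC content one of 41.1%, against 41.4%. The median number of annotated transcripts was 2, against 1 in the table. Protein-coding members had a median of 9 exons, against 5 for protein-coding genes of the table, and 32.7% of all members had 10 or more exons, against 21.0% of the table. At least 95% of the 50-base stretches were unique in 92.3% of the members and in 96.6% of the table. An annotated gene overlapped 28.8% of the members and 30.4% of the table, on the opposite strand in 19.2% and 26.4% and on the same strand in 11.5% and 5.18%. The labels do not say whether strand was used in counting, so reads of the 10 members with an opposite-strand partner cannot be told apart from that partner's.

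Promoters, taken as 250 bases before to 50 after the RefSeq start, were searched on both strands for a few short motifs. TATAAA was in 48.1% of the 52 members' promoters and in 51.4% of 16855 in the table. The shares were 7.69% and 9.14% for CACGTG, 13.5% and 14% for TTGACC, 25% and 20.9% for TTGACT, 11.5% and 8.34% for CATGCA, 15.4% and 13.4% for TGTCTC, and 0% and 2.57% for GCCGCC, in the same order. A share of 11.5% is 6 promoters of 52, so differences of this size cannot be read from a set this small.

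How many genes met the rule depended on the scaling. After median-ratio scaling 27 genes met it and after quantile normalization 7, all of them among the 52 members. The 7 were AT1G50970, AT1G79245, AT2G11240, AT3G44769, AT3G59330, AT4G00040 and AT5G44660. With the genotypes exchanged, so that every tt7-7 sample lay below 1 RPKM and every Col-0 sample was at least 4 RPKM, the rule found 3 genes.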

How the data were processed

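RNA-seq was analysed in 6 seed samples, 3 of tt7-7 and 3 of Col-0, grouped by sample title. The authors deposited RPKM values for 16967 genes, written with decimal commas. The submitters' processing notes name cutadapt, FastQC, HISAT2, HTSeq, DESeq2 and the build TAIR10, with no versions or settings. Gene names, lengths, gene order and sequences came from RefSeq TAIR10.1, to which 16857 identifiers matched, so no coordinates are given. The other 110 did not match.

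Reads were recovered from the RPKM steps with the longest RefSeq transcript as length and were whole within 0.02 in all 6 samples for 16855 genes (99.3%), among them all 52 members.

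limma 3.58.1 (R 4.3.3) was fitted to log2(RPKM + 1) with a trended variance prior over 16663 genes with a mean of at least 2 RPKM, after a test on simulated data. A pseudocount of 1 understates changes of low genes. Two-sided p-values were adjusted across the tested genes by Benjamini-Hochberg. An exact permutation test of 3 against 3 cannot go below 0.1, which was its value for TT7. All 52 members pass the filter by construction. Replicate numbers were not used to pair the samples in the main fit.

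The members and lists were chosen with earlier results of these data known. Members named were the 10 highest in tt7-7, the 5 lowest in Col-0, up to 4 per gene type, those at the limits, adjacent or alike in protein, with the widest or narrowest spread, or with a symbol. Relatives, neighbours and other members were named after their values were seen. Relatives were found with blastp 2.17.0 (e-value 1e-05). Role groups were assigned by hand from RefSeq descriptions. Python 3.11.15, pandas 2.3.3 and Biopython 1.88 were used.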

Additional observations from a re-analysis of the deposited data

How the results depend on the processing

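Genes called higher and lower numbered 8517 and 1412. Median-ratio scaling gave 4310 and 4597, and quantile normalization gave 4468 and 3576, so directions of small changes rest on the scaling. With a mean of at least 10 RPKM, 4351 genes were called higher. Leaving out 1 sample gave 7292 to 9100 higher and 1004 to 1483 lower. With the replicate number as a block (a replicate block) they were 8587 and 1583. To look at the numbering, each gene's genotype mean was subtracted from its levels on the log scale of the fit. Correlations of the remaining deviations between same-numbered samples of the genotypes were 0.212, -0.19 and 0.477. They are not correlations of the whole levels of the samples. Differently numbered samples were not compared, so these values cannot show whether the numbers pair the samples. The block changed no call of TT7.

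The rule gave 11 genes with a Col-0 limit of 0.5 RPKM, 232 with 2 RPKM, 245 with a tt7-7 limit of 2 RPKM, 10 with 8 RPKM, 27 after median-ratio scaling and 7 after quantile normalization. Leaving out 1 sample gave 54 to 78. The median ratio of group means over the 52 members was 9.47 after median-ratio scaling, 5.37 after quantile normalization and 11.7 to 16.0 with a sample left out. TT7 kept its direction and call in every alternative run, with log2 fold changes of -2.26 to -1.42.

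The filter of a mean of at least 10 RPKM takes genes out of the test, so its counts here are of fewer genes. Relatives higher in tt7-7 numbered 6 with that filter. They numbered 9 after median-ratio scaling and 9 after quantile normalization (1 lower), and 11 to 13 with a sample left out. Neighbours higher numbered 10, 13 and 13 under the same 3 settings, and lower ones 0, 13 and 12, or 1 to 2 with a sample left out. The type I MADS-box count of 1 became 0 under these 3 settings (with 1 lower under median-ratio scaling) and 0 to 7 with a sample left out. AGL91, the gene behind that count, was not tested with a mean of at least 10 RPKM. The heat shock count of 2 became 0 under both scalings and 1 to 2 with a sample left out. The lower defence gene, PR5, was not tested with a mean of at least 10 RPKM, and the count was 0 or 1 with a sample left out. GSTT3 (AT5G41220) reversed to -0.11 after median-ratio scaling and -0.19 after quantile normalization, ENGase85B (AT3G11040) to -0.11 and -0.34, AT1G07380 to -0.07 and -0.16, and SR34 (AT1G02840) to -0.11 and AT1G48900 to -0.08 under median-ratio scaling. Of the other gene results under an alternative, 306 kept direction and call and 30 kept the direction alone. The cause was not tested. Depth limits the Col-0 side of the members, 8 of which had fewer than 10 reads there.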

Other observations

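The 3 genes that met the rule with the genotypes exchanged were near 0 in tt7-7 and spread widely in Col-0. AT1G62210 had 0, 0 and 0.458 RPKM in tt7-7 replicates 1 to 3, against 7.7, 13.7 and 32.4 RPKM in Col-0 replicates 1 to 3. AT4G31830 had 0.722, 0.159 and 0.871 RPKM in tt7-7 replicates 1 to 3, against 6.65, 14.3 and 28.9 RPKM in Col-0 replicates 1 to 3. The plastid gene ATCG00500 had 0.219, 0.575 and 0.537 RPKM in tt7-7 replicates 1 to 3, against 8.29, 34.7 and 16.2 RPKM in Col-0 replicates 1 to 3. The groups did not overlap in any of the 3, and like the 52 members these genes were selected on the values given.

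A small gene, AT4G06980, lies across the shortest member AT4G21063 and was close to silent in Col-0 as well. It had 3.36, 3.47 and 3.44 RPKM in tt7-7 replicates 1 to 3, against 0, 0.639 and 0 RPKM in Col-0 replicates 1 to 3. Its mean lay under the filter, so it was not tested.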
